A study of Mus musculus with 28 samples.

Results

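Ribosome biogenesis genes encode the proteins and enzymes that make ribosomal RNA and build it into ribosomal subunits. The set studied here held 46 such genes, taken by symbol from the 47729 gene IDs of the deposited count tables. All 46 were found, and all 46 were among the 17299 genes that passed the filter on low counts. The set held 7 genes of the small nucleolar ribonucleoproteins (snoRNPs), 7 genes of RNA polymerase I and nucleolar transcription, 19 genes of the small subunit processome and 40S maturation, and 13 genes of 60S assembly.

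The series asked, per its title, whether epidermal stem cells keep a memory of inflammation that changes a later response to damage. C57BL/6 mice labelled as female were treated from postnatal day 60 for 6 days with imiquimod, an agonist of Toll-like receptor 7 that provokes psoriasis-like skin inflammation, or with a control cream (vanicream). Skin was taken at the end of treatment (day 6 imiquimod and day 6 control), 30 days later (day 30 imiquimod and day 30 control), or 6 h or 12 h after full-thickness wounds to the back at that later time (post-imiquimod and control wounds). Each of these 8 groups had 2 RNA-seq libraries from sorted epidermal cells that carried integrin α6, integrin β1 and Sca1 and lacked CD34. Day 30 control is the unwounded group for both control wound times, and day 30 imiquimod is that for both post-imiquimod wound times. The labels do not say whether the 2 libraries of a group came from separate animals, so that p-values measure the spread between libraries, which may be technical.

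Ribosome production starts in the nucleolus, where RNA polymerase I transcribes the long precursor of the ribosomal RNAs. Box C/D and box H/ACA snoRNPs methylate and pseudouridylate that precursor, the small subunit processome cuts and folds the part that becomes the 40S subunit, and a separate set of factors builds the 60S subunit. Skin keratinocytes use this pathway when they grow, and the transcription factor MYC is known to activate many of its genes through the E-box letters CACGTG.

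A promoter window of 300 bases, from 250 before to 50 after a transcript start, was found in the RefSeq table (GRCm38.p6) for 40 of the 46 genes. Some genes have several windows (43 for the 40 genes), and a gene was counted where any of them held the motif. The letters CACGTG, which read the same on both strands and were the only motif searched, occurred in the window of 10 of the 40 (25%), against 2187 of the 27025 genes with a window in the table (8.09%). The 27025 were not limited to genes expressed in these cells, as the 40 were, and the shares were not tested against each other. The 10 with the letters were Imp4, Ltv1, Mybbp1a, Nop2, Pes1, Pno1, Tsr1, Utp20, Utp4 and Wdr43. The 5 on the plus strand with the letters within the 100 bases from 70 before to 30 after the start are shown here, since they include Nop2 and Utp4, which are among the members with the largest wound responses. Capitals mark CACGTG, positions count from 1 at the transcript start on which the window is placed (in Wdr43 it lies inside the annotated span of the gene), and the regions are chr6:125131813-125131912 (Nop2), chr11:3963905-3964004 (Pes1), chr11:74898010-74898109 (Tsr1), chr8:106893570-106893669 (Utp4) and chr17:71616145-71616244 (Wdr43).
Nop2: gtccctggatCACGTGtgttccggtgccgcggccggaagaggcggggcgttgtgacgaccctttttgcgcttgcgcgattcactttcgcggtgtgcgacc
Pes1: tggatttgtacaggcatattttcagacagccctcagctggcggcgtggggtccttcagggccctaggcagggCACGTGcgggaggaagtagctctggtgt
Tsr1: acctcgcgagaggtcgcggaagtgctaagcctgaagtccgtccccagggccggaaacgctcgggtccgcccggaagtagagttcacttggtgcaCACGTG
Utp4: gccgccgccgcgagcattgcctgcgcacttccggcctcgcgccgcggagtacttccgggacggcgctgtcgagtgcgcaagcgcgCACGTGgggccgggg
Wdr43: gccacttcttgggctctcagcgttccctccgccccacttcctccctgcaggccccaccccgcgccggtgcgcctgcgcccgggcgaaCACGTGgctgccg

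The first base of the motif lay at position -60 in Nop2 and at 3, 25, 16 and 18 in Pes1, Tsr1, Utp4 and Wdr43. A match describes these letters in this window and was not tested as a binding site. The median log2 change of the 10 genes with the motif was 1.02 at day 6 of imiquimod and 1.40 at 6 h of control wounding. For the 30 genes with a window and no motif it was 0.94 and 1.45. In 12 h control, 6 h post-imiquimod and 12 h post-imiquimod wounds it was 1.15, 1.57 and 1.21 with the motif. Without the motif it was 1.07, 1.49 and 1.15 in those wounds, and none of these differences was tested.

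Library totals ran from 23623968 to 76993427 counts, and no member had fewer than 395 counts in any library. Krt5, a keratin of basal keratinocytes, stood at 14056 to 29561 CPM (counts scaled to the same total in each library), and Cd34 at 0.193 to 10.4 CPM, so that the defining keratin was present and the marker sorted against was low. The mitochondrial share of reads was 7.65% for day 6 imiquimod library 1, 3.31% for day 6 control library 1 and no higher than 2.48% elsewhere. Both day 30 libraries numbered 1 go against their label of female: Xist, an RNA made in female cells, had no more than 1 read in either, and genes of the Y chromosome had 6023 (imiquimod) and 7830 (control). Elsewhere Xist had 11484 reads or more and the Y-linked genes no more than 2. Comparisons that use day 30 libraries are therefore also given without those 2.

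The ribosome biogenesis genes were high in wounds, intermediate at day 6 of imiquimod, and low in day 30 skin. The summed level of the 46 genes was 7221 and 7016 CPM in day 6 imiquimod libraries, against 4320 and 3747 CPM in day 6 control. At day 30 it was 4519 and 3638 CPM after imiquimod and 4307 and 3522 CPM in control. It was 11452 and 12078 CPM in 6 h post-imiquimod wounds and 10553 and 12084 CPM in 6 h control wounds. At 12 h it was 9476 and 9524 CPM in post-imiquimod wounds and 9384 and 9020 CPM in control wounds. All 8 wound libraries lay above both day 6 imiquimod libraries, which lay above all 6 other libraries. In bulk RNA, a change in the share of cells of a type and a change in RNA per cell cannot be told apart.

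**Figure D1:**
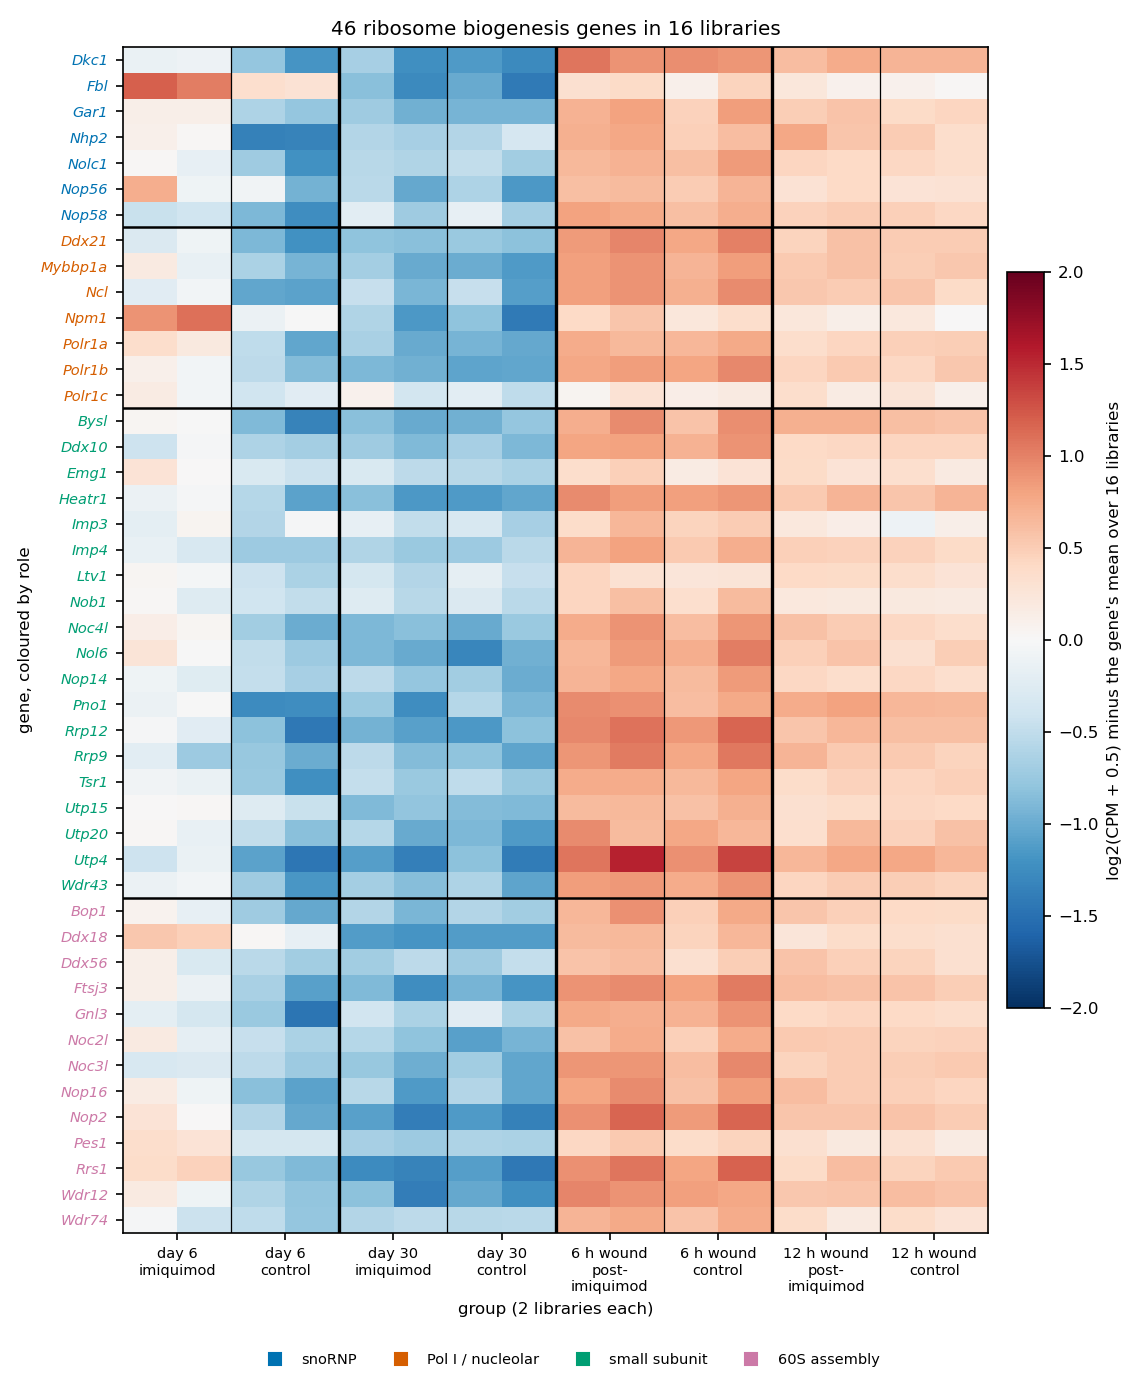
Level of each of the 46 genes (rows, coloured by role) in the 16 libraries (columns, 2 per group), as log2(CPM + 0.5) minus the mean of that gene over the libraries. The 8 wound libraries are red for nearly every gene and the day 30 libraries blue, while Fbl and Npm1 are at their highest in the 2 day 6 imiquimod libraries.

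The highest group mean was that of 6 h post-imiquimod wounds for 32 genes and that of 6 h control wounds for 10. Ltv1 and Polr1c had it in 12 h post-imiquimod wounds, and Fbl and Npm1 in day 6 imiquimod skin. For all 46 genes each of the 4 wound group means lay above both day 30 means, and for 41 of them above the day 6 imiquimod mean as well. The lowest mean was in day 30 control for 20 genes, day 30 imiquimod for 7 and day 6 control for 19. These counts order means, were made for the 46 genes alone and were not tested. Of all genes tested, 36.1% (6 h post-imiquimod) to 44.6% (12 h control) had both wound libraries above both day 30 libraries of their treatment.

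At day 6, nearly all of the 46 genes were higher with imiquimod, by a median of about 2-fold. Of the 46 genes, 45 rose and none fell (edgeR's quasi-likelihood test, adjusted p under 0.05 over all genes tested), where 21.6% of all genes tested were called higher. The median log2 change was 1.00, and the range 0.44 to 1.62, against a median of 0.10 over all genes tested. In CPM, both imiquimod libraries exceeded both control libraries for 44 of the 46 genes, as they did for 29.9% of all genes tested, and the groups overlapped for Nop56 and Imp3. With library 1 of day 6 imiquimod left out 41 genes were called, and with library 2 of day 6 control left out 35. The 10 genes that lost the call without 1 of the 4 day 6 libraries were Ddx10, Nob1, Noc3l, Nop14, Nop56, Nop58, Polr1c, Rrp9, Utp20 and Wdr74.

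Imp3, a component of the U3 snoRNP, was the 1 gene that did not pass at day 6. It stood at 54.6 and 65.1 CPM with imiquimod and at 41.3 and 61.4 CPM in control, so that the groups overlapped (log2 change 0.44 ± 0.23 SE, edgeR adjusted p = 0.143). Libraries that shared a number at a time point also resembled each other, and with that number as a replicate block Imp3 passed (edgeR adjusted p = 0.00678).

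Among the snoRNP genes at day 6, all 7 rose, with a median log2 change of 1.04. Nhp2, a core protein of the box H/ACA particle, had the largest rise of the 46 genes. It stood at 155 and 146 CPM with imiquimod and at 56.3 and 57 CPM in control (log2 change 1.62 ± 0.14 SE, edgeR adjusted p = 8.28e-06). The libraries of each group lay close together and the groups far apart. Fbl, which encodes the 2′-O-methyltransferase fibrillarin of the box C/D particle, stood at 116 and 103 CPM with imiquimod and at 63.8 and 61.8 CPM in control (1.01 ± 0.20 SE, edgeR adjusted p = 0.0015). Dkc1, the pseudouridine synthase dyskerin, stood at 109 and 112 CPM with imiquimod and at 69.7 and 52.4 CPM in control (1.07 ± 0.19 SE, edgeR adjusted p = 0.000988). Neither gene's groups overlapped.

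Nop56, a scaffold of the box C/D particle, varied more between libraries than its partners did. It stood at 243 and 139 CPM with imiquimod and at 141 and 76.2 CPM in control, where library 1 of each group was the higher one and library 2 with imiquimod lay just under library 1 of control. The log2 change was 1.01 ± 0.31 SE (edgeR adjusted p = 0.0221). That call was lost without library 1 of imiquimod (edgeR adjusted p = 0.184) and without library 2 of control (0.175). The Nop56 gene (chr2:130274367-130279313, GRCm38.p6) holds 5 snoRNA genes within its span, which overlaps that of Idh3b. Reads from a stretch shared by overlapping genes cannot be assigned without strand. Gar1, Nolc1 and Nop58, the other snoRNP genes, had log2 changes of 1.04, 1.08 and 0.86.

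Of the 7 genes of RNA polymerase I and nucleolar transcription, all rose at day 6, with a median log2 change of 1.09. Polr1b, the second largest subunit of RNA polymerase I, stood at 79.7 and 71.1 CPM with imiquimod and at 51.6 and 40.4 CPM in control (0.92 ± 0.15 SE, edgeR adjusted p = 0.000384). Ncl, which encodes nucleolin, an abundant nucleolar RNA-binding protein, stood at 1154 and 1296 CPM with imiquimod and at 658 and 640 CPM in control (1.14 ± 0.26 SE, edgeR adjusted p = 0.00413). The groups of both genes were well separated. Npm1, the nucleolar chaperone nucleophosmin, stood at 885 and 1020 CPM with imiquimod and at 437 and 472 CPM in control (1.29 ± 0.25 SE, edgeR adjusted p = 0.00155). Both of its imiquimod libraries lay far above both controls. The smallest rise of this role was that of Polr1c, a subunit shared by RNA polymerases I and III, at 0.58, and the other genes, Polr1a, Ddx21 and Mybbp1a, lay between 1.00 and 1.24.

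Of the 19 small subunit genes, 18 rose at day 6, with a median log2 change of 0.81 and a range of 0.44 to 1.43. Pno1, which helps the last steps of 40S maturation, had the largest rise. It stood at 63.9 and 69.2 CPM with imiquimod and at 28.7 and 28.9 CPM in control (1.43 ± 0.19 SE, edgeR adjusted p = 0.000136). Heatr1, a large scaffold of the processome, stood at 113 and 120 CPM with imiquimod and at 82.2 and 57.5 CPM in control (0.95 ± 0.18 SE, edgeR adjusted p = 0.00127). The groups did not overlap in either gene. Bysl and Utp4, which also serve the small subunit, followed Pno1 with 1.33 and 1.21.

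All 13 genes of 60S assembly rose at day 6, with a median log2 change of 0.96. Rrs1, which brings the 5S particle to the large subunit in yeast, stood at 93.3 and 99.7 CPM with imiquimod and at 42.8 and 38.9 CPM in control (1.46 ± 0.19 SE, edgeR adjusted p = 0.000108). Bop1, part of the PeBoW complex with Pes1 and Wdr12, stood at 150 and 128 CPM with imiquimod and at 88 and 70.6 CPM in control (1.02 ± 0.18 SE, edgeR adjusted p = 0.000952). Neither gene's groups overlapped. Its partners Wdr12 and Pes1 rose by 0.96 and 0.89 on the log2 scale, and the smallest rise was that of Noc3l at 0.54.

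**Figure D2:**
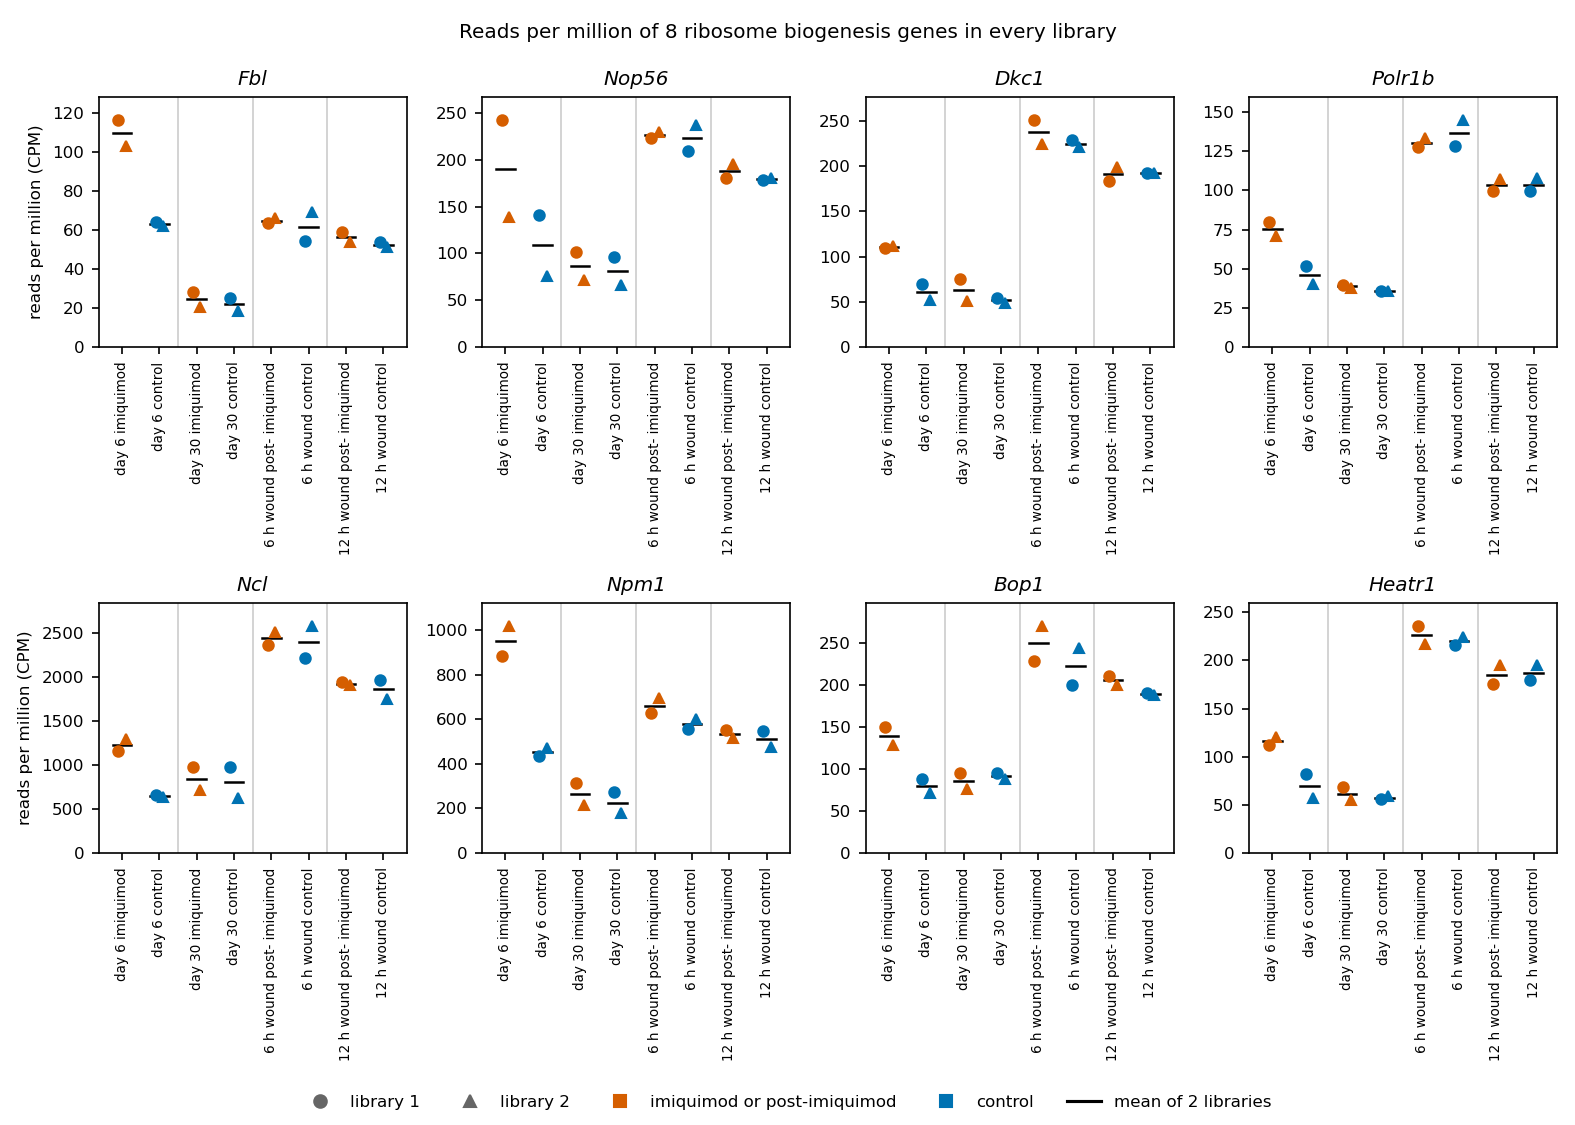
Level in CPM (vertical axis, from 0) of 8 genes in every library, with circles for library 1, triangles for library 2 and bars for the mean of the 2. In each panel the day 6 imiquimod mean lies above the day 6 control mean, the day 30 groups lie together and the 4 wound groups lie above them.

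Markers of other cells and proliferation genes moved with imiquimod at day 6 too, and some marker sums rest mainly on a single gene. All 10 proliferation genes of a fixed list rose, with a median log2 change of 1.11, and their summed level was 2009 to 2087 CPM with imiquimod and 987 to 1292 CPM in control. Of 16 macrophage and monocyte markers 11 rose, with a summed level of 88.3 to 93.9 CPM with imiquimod and 13.7 to 25.1 CPM in control. None of those markers was at 0 in all libraries, and Adgre1, the macrophage marker F4/80, reached 11.7 CPM. Of the 12 fibroblast markers 1 rose (Postn, log2 change 1.95), with a summed level of 1163 to 1358 CPM with imiquimod and 663 to 887 CPM in control. Over all libraries Postn reached 968 CPM, and the next highest fibroblast marker, Col1a1, 201 CPM. The neutrophil markers summed to 13.3 to 24.5 CPM with imiquimod and 0.31 to 3.03 CPM in control, and 1 of 2 tested rose, Cxcr2. No other neutrophil marker exceeded 1 CPM in any library. The T-cell markers summed to 26.3 to 56.5 CPM with imiquimod and 88.8 to 163 CPM in control, and 1 of 2 tested fell, Thy1. Apart from Thy1, no T-cell marker exceeded 1 CPM in any library. The Langerhans and dendritic markers summed to 174 to 378 CPM with imiquimod and 179 to 190 CPM in control, and 1 of 7 tested rose, H2-Ab1. Over all libraries Epcam, which epithelial cells also make, reached 476 CPM, and the next highest of these markers, Cd74, 92.6 CPM. The part of other cells, of the cell cycle and of the mitochondrial share in the rise of the ribosome biogenesis genes was not tested.

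At day 30, no difference by earlier imiquimod was detected in the 46 genes. Of 46, 0 were called higher and 0 lower, where 0.00578% of all genes tested were called higher and 0.00578% lower (0.0116% in either direction). Also 0 passed an unadjusted p under 0.05 in edgeR, and DESeq2 called 0. The log2 changes ran from -0.32 to 0.25, with a median of -0.07, against -0.02 over all genes tested. Both imiquimod libraries exceeded both controls for 3 genes (17.8% of all genes tested did so) and both lay lower for 2, Pes1 and Nhp2 (8.49%). Without both day 30 libraries numbered 1, again 0 were called, with a median of -0.06.

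Ncl stood at 980 and 712 CPM in day 30 imiquimod and at 978 and 626 CPM in day 30 control. In both groups library 1 was the higher one. Nhp2, the gene with the largest rise at day 6, stood at 96 and 91.5 CPM in day 30 imiquimod and at 96 and 114 CPM in day 30 control (log2 change -0.24 ± 0.14 SE, edgeR adjusted p = 1). Its groups lay side by side at rounding.

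The imiquimod effect at day 6 was larger than that at day 30 for 37 of the 46 genes by the test of the difference itself (edgeR, interaction contrast, adjusted p under 0.05), and smaller for none, where 13.7% of all genes tested were called higher and 8.82% lower. The median difference was 0.99 on the log2 scale. It was 1.86 ± 0.19 SE for Nhp2 (edgeR adjusted p = 0.000127), 1.75 ± 0.27 for Pno1 (0.00105) and 1.58 ± 0.27 for Rrs1 (0.00164). Those 3 genes were also the 3 with the largest rise at day 6.

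That count of 37 depended on single libraries. It was 18 without library 2 of day 30 imiquimod, 21 without library 2 of day 6 control and 23 without library 1 of day 30 control. Without both day 30 libraries numbered 1 it was 25. With only the 4 groups compared in the fit it was 10, with library totals alone in place of TMM scaling it was 23, and with the replicate block it was 45.

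Nearly all of the 46 genes were also higher within 6 h of wounding. In control skin, 45 of the 46 genes rose at 6 h against day 30 and none fell, where 18% of all genes tested were called higher and 16.7% lower. The median log2 change was 1.45, with a range of 0.37 to 2.14, against 0.01 over all genes tested. Both wound libraries exceeded both day 30 libraries for all 46 genes, against 39.3% of all genes tested. At 12 h 42 of 46 rose and none fell, where 16.5% of all genes tested were called higher (30.8% in either direction), with a median of 1.09, and both wound libraries exceeded both day 30 libraries for all 46 (44.6%). Without both day 30 libraries numbered 1, 46 genes were called at 6 h and 45 at 12 h.

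In post-imiquimod skin, 45 of 46 rose at 6 h against day 30 imiquimod, where 20.1% of all genes tested were called higher, with a median log2 change of 1.53. At 12 h 44 of 46 rose, where 20.3% of all genes tested were called higher and 17.3% lower, with a median of 1.19. None fell at either time. Without both day 30 libraries numbered 1, 46 and 45 were called. The 4 wound comparisons share day 30 libraries in pairs, so that the 6 h and 12 h values of a treatment are not independent.

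The genes that did not pass were few. Polr1c missed the threshold in all 4 wound comparisons, with log2 changes of 0.27 to 0.37 and edgeR adjusted p of 0.14 to 0.262. It stood at 64.5 and 66.3 CPM in 6 h control wounds and at 50.5 and 41.4 CPM in day 30 control, so that the groups did not overlap there. Imp3 missed it at 12 h in control wounds (0.31, edgeR adjusted p = 0.328) and in post-imiquimod wounds (0.44, 0.145). Nob1, the nuclease that trims the 3′ end of 18S RNA, and Gnl3, nucleostemin, missed it at 12 h in control wounds (0.40, 0.0929, and 0.59, 0.0565). With the replicate block each of these 8 results passed, at edgeR adjusted p between 0.00411 and 0.0394.

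The largest wound responses were those of Rrs1, Nop2 and Utp4. Rrs1 stood at 126 and 164 CPM in 6 h control wounds and at 33.5 and 26.6 CPM in day 30 control (log2 change 2.14 ± 0.19 SE, edgeR adjusted p = 1.67e-05). Nop2, the 28S RNA methyltransferase and nucleolar proliferation antigen whose promoter is shown above, stood at 216 and 267 CPM in 6 h control wounds and at 54 and 46.4 CPM in day 30 control (2.13 ± 0.20 SE, edgeR adjusted p = 2.2e-05). Both genes were over 4 times as high in wounds (folds of 4.40 and 4.38). Utp4, also called cirhin, a processome protein whose mutation causes a childhood liver cirrhosis in humans, stood at 184 and 249 CPM in 6 h control wounds and at 55.5 and 36.7 CPM in day 30 control (2.10 ± 0.28 SE, edgeR adjusted p = 0.000186). In post-imiquimod skin Utp4 stood at 207 and 286 CPM at 6 h and at 45.5 and 37.6 CPM at day 30 (2.55 ± 0.28 SE, edgeR adjusted p = 4.32e-05), the largest of all changes of the 46 genes. Rrs1 and Nop2 followed there with 2.29 and 2.26.

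At 12 h in control wounds Dkc1 led. It stood at 192 and 193 CPM in 12 h control wounds and at 54.2 and 49 CPM in day 30 control (log2 change 1.71 ± 0.20 SE, edgeR adjusted p = 8.57e-05). Both wound libraries were nearly alike. Utp4 followed with 1.61 and Nop2 with 1.60. In 12 h post-imiquimod wounds Utp4 led again, with 155 and 168 CPM against 45.5 and 37.6 CPM in day 30 imiquimod (1.90 ± 0.28 SE, edgeR adjusted p = 0.000276), before Rrs1 with 1.77 and Nop2 with 1.74.

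By role, the median log2 change at 6 h in control wounds was 1.32 for the snoRNP genes, 1.55 for RNA polymerase I and nucleolar transcription, 1.45 for the small subunit and 1.49 for 60S assembly. At 12 h it was 0.95, 1.10, 1.10 and 1.18 for the same roles. Single genes within a role differed, and those of RNA polymerase I and nucleolar transcription ran from 0.37 (Polr1c) to 1.80 (Polr1b) at 6 h. Differences between roles were not tested.

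For the snoRNP genes at 6 h, Fbl stood at 54.4 and 68.9 CPM in control wounds and at 24.9 and 18.6 CPM in day 30 control (1.37 ± 0.20 SE, edgeR adjusted p = 0.000287). Dkc1 stood at 229 and 221 CPM in control wounds and at 54.2 and 49 CPM in day 30 control (1.98 ± 0.20 SE, edgeR adjusted p = 2.94e-05). Nop56 stood at 210 and 237 CPM in control wounds and at 95.7 and 66.5 CPM in day 30 control (1.32 ± 0.31 SE, edgeR adjusted p = 0.00633). Both wound libraries were above both day 30 libraries in each of these 3 genes. In fits without library 2 of day 30 control, the unwounded group was library 1 alone, whose reads go against its label of female. The Nop56 call at 6 h was lost without library 2 of day 30 control (edgeR adjusted p = 0.0521) and without library 2 of the control wounds (0.0502). At 12 h Nop56 lost it without library 2 of day 30 control (0.191) and without library 1 (0.106) or 2 (0.122) of the control wounds. Nop58, its scaffold partner, and Imp3 and Ltv1 of the small subunit lost calls in control wounds without library 2 of day 30 control (at 6 h 0.06, 0.102 and 0.213) and, with Nob1 (0.0563), without library 2 of the 6 h wounds (0.055, 0.0778 and 0.174). Ltv1 lost it also without library 1 of the 6 h wounds (0.0554).

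Of the polymerase and nucleolar genes, Polr1b stood at 128 and 145 CPM in 6 h control wounds and at 35.6 and 35.8 CPM in day 30 control (1.80 ± 0.15 SE, edgeR adjusted p = 1.13e-05). Both wound libraries lay far above both day 30 libraries. Ncl stood at 2214 and 2586 CPM in 6 h control wounds and at 978 and 626 CPM in day 30 control (1.44 ± 0.26 SE, edgeR adjusted p = 0.00116). Npm1 stood at 557 and 602 CPM in 6 h control wounds and at 271 and 178 CPM in day 30 control (1.22 ± 0.25 SE, edgeR adjusted p = 0.00252). The wound libraries lay above both day 30 libraries in all 3 genes.

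At 12 h Ncl stood at 1969 and 1756 CPM in control wounds (log2 change 1.01 ± 0.26 SE, edgeR adjusted p = 0.0101) and Npm1 at 547 and 475 CPM (0.98 ± 0.25 SE, 0.00992). Neither overlapped with day 30 control. Here too, a fit without library 2 of day 30 control keeps only library 1, whose reads go against its label of female. Both calls at 12 h were lost when library 2 of day 30 control was left out (edgeR adjusted p = 0.0766 for Ncl and 0.0799 for Npm1) or library 1 of the 12 h control wounds (0.0599 and 0.062). Without library 2 of day 30 control Nop58 and Ltv1 also lost the call at 12 h (0.266 and 0.217), as they did without library 1 (0.146 and 0.14) or 2 (0.122 and 0.102) of the wounds.

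Heatr1 of the small subunit stood at 217 and 224 CPM in 6 h control wounds and at 55.5 and 59.2 CPM in day 30 control (1.81 ± 0.18 SE, edgeR adjusted p = 3.26e-05). Bop1 of 60S assembly stood at 200 and 244 CPM in 6 h control wounds and at 95.5 and 88.2 CPM in day 30 control (1.14 ± 0.18 SE, edgeR adjusted p = 0.000553). Both rose in every wound library. At 12 h Heatr1 had a log2 change of 1.52 and Bop1 of 0.85, and both passed (edgeR adjusted p = 0.000109 and 0.0041).

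In post-imiquimod skin the 8 genes described at day 6 by library all rose at 6 h. There Fbl stood at 63.4 and 65.9 CPM in wounds and at 27.9 and 20.7 CPM in day 30 imiquimod, with a log2 change of 1.38. Ncl stood at 2373 and 2511 CPM in wounds and at 980 and 712 CPM in day 30 imiquimod, with a change of 1.50. Npm1 stood at 627 and 696 CPM in wounds and at 313 and 213 CPM in day 30 imiquimod, with a change of 1.30. The wound libraries were above both unwounded libraries for 45 of 46 genes at 6 h (36.1% of all genes tested) and for all 46 at 12 h (38.7%), and Polr1c overlapped at 6 h.

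Of the others, Nop56 stood at 223 and 229 CPM in 6 h post-imiquimod wounds and at 101 and 72 CPM in day 30 imiquimod, with a log2 change of 1.35. Dkc1 stood at 251 and 225 CPM in wounds and at 75.4 and 50.9 CPM in day 30 imiquimod, with a change of 1.88. Polr1b stood at 127 and 133 CPM in wounds and at 39.5 and 38 CPM in day 30 imiquimod, with a change of 1.72. All 3 passed in edgeR with no overlap of the groups. Heatr1 stood at 236 and 218 CPM in wounds and at 68.2 and 54.5 CPM in day 30 imiquimod, with a change of 1.85. Bop1 stood at 229 and 270 CPM in wounds and at 95.5 and 76.1 CPM in day 30 imiquimod, with a change of 1.51. Both passed as well.

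In fits without library 2 of day 30 imiquimod, the unwounded group was library 1 alone, whose reads go against its label of female. Library 2 of day 30 imiquimod decided several post-imiquimod calls. Without it Nop56 (edgeR adjusted p = 0.0545) and Imp3 (0.131) were lost at 6 h. At 12 h Nop58 (0.101), Ncl (0.0543), Nop56 (0.145), Nob1 (0.212), Npm1 (0.102) and Gnl3 (0.0859) were lost without it, which left 38 genes. Imp3 was also lost at 6 h without library 2 of the wounds (0.138). At 12 h Nop56 and Nob1 were lost without library 1 (0.0519 and 0.0802) or library 2 (0.0881 and 0.0972) of the wounds, and Nop58 without library 2 (0.0512).

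**Figure D3:**
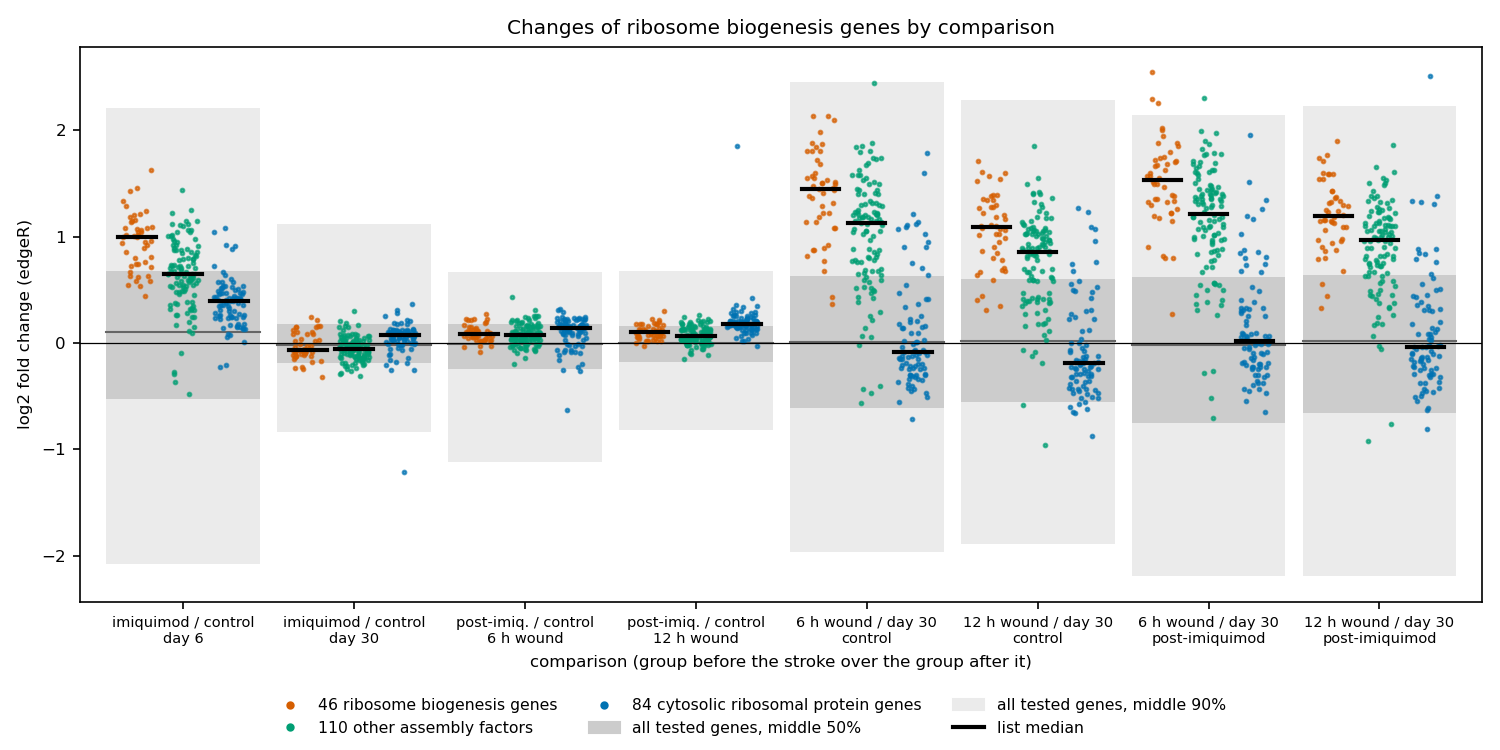
Log2 fold change in edgeR (vertical axis) of the 46 ribosome biogenesis genes, 110 other assembly factors and 84 cytosolic ribosomal protein genes in 8 comparisons, with list medians as bars and the middle 50% and 90% of all genes tested in grey. The 46 genes have medians of 1.00 at day 6 and of 1.09 to 1.53 in the 4 wound comparisons, and lie near 0 in the 3 later comparisons of earlier imiquimod with control.

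Markers of other cells moved in wounds as well. The macrophage and monocyte markers summed to 7.52 to 15.4 CPM in 6 h control wounds and 5.01 to 5.49 CPM in day 30 control, and 7 of 16 rose and 1 (Fcgr3) fell. They summed to 7.91 to 9.52 CPM in 6 h post-imiquimod wounds and 3.94 to 4.62 CPM in day 30 imiquimod, and 4 rose. The fibroblast markers summed to 480 to 540.3 CPM in 6 h control wounds and 306 to 402 CPM in day 30 control, and 3 of 12 rose. Of 8 neutrophil markers, Elane was at 0 in all libraries and only Cxcr2, a chemokine receptor, exceeded 1 CPM, with 73.2 and 110 CPM in 6 h control wounds and at most 0.543 CPM in day 30 control. Of 8 T-cell markers, only Thy1 exceeded 1 CPM, with 355 and 430.1 CPM in 6 h control wounds and 211 and 92 CPM in day 30 control. The Langerhans and dendritic markers summed to 414 to 489 CPM in 6 h control wounds and 145 to 193 CPM in day 30 control, and 2 of 7 tested rose, Cd209a and Epcam. Epcam, which epithelial cells also make, reached 476 CPM, and Cd207, the Langerhans marker langerin, at most 1.27 CPM. Of the melanocyte markers 3 of 6 tested rose, Dct, Kit and Tyrp1, with sums of 11.0 to 13.8 CPM in 6 h control wounds and 10.2 to 13.7 CPM in day 30 control. The part of these cells in the wound response was not tested.

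Proliferation genes did not move with the ribosome biogenesis genes at 6 h. None of the 10 passed in 6 h control wounds in edgeR (0 also passed at an unadjusted p under 0.05, and the median log2 change was 0.06), with sums of 499 to 850 CPM in wounds and 638 to 643 CPM in day 30 control. In 6 h post-imiquimod wounds 1 rose (Rrm2, 0.68) and 1 fell (Mki67, -0.92). At 12 h 4 of 10 rose and 1 fell in control wounds, and 4 rose and 5 fell in post-imiquimod wounds. The rising ones, Ccne1, Mcm2, Mcm5 and Rrm2, serve the entry into and the start of DNA synthesis, and Mki67, Cdk1, Ccnb1 and Ccna2, which serve later steps of the cycle, were among those that fell in 12 h post-imiquimod wounds.

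**Figure D4:**
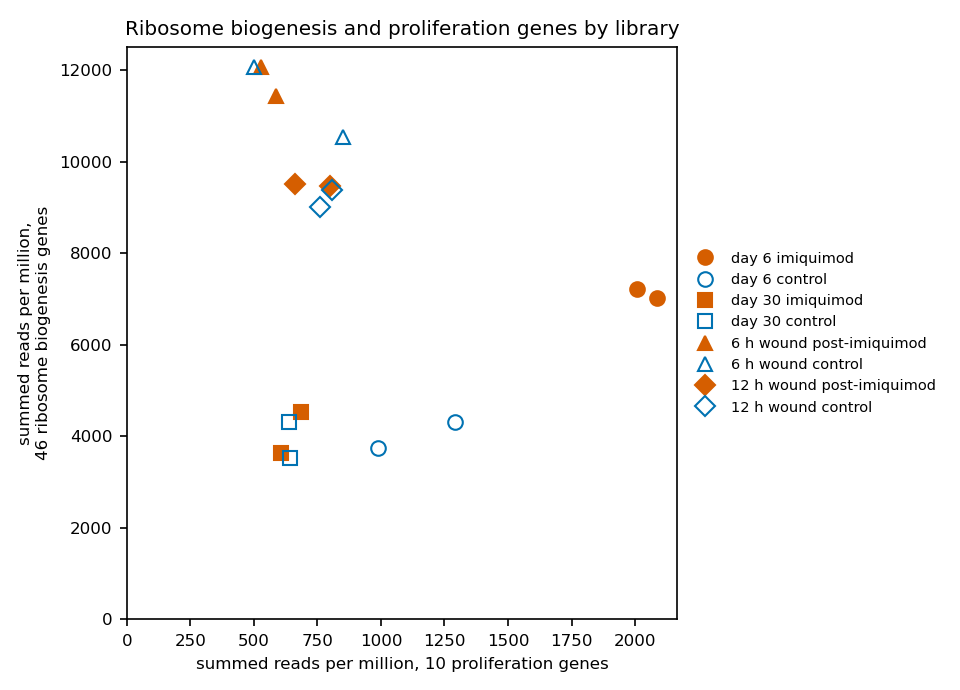
Summed CPM of the 46 ribosome biogenesis genes (vertical axis) against summed CPM of 10 proliferation genes (horizontal axis) in the 16 libraries. Day 6 imiquimod libraries are high on the horizontal axis at 2009 and 2087, while the 8 wound libraries are the highest on the vertical axis at 9020 to 12084 with proliferation sums of 499 to 850.

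No difference by earlier imiquimod was detected in the 46 genes in wounds. At 6 h, 0 of 46 genes were called in post-imiquimod against control wounds in edgeR, where 0.0347% of all genes tested were called in either direction. The median log2 change was 0.08, against -0.007 over all genes tested, with a range of -0.08 to 0.27, and 0 passed an unadjusted p under 0.05. Both post-imiquimod libraries exceeded both control libraries for 8 genes (16.6% of all genes tested) and lay below both for 0 (18.6%). At 12 h 0 of 46 were called, as was 0% of all genes tested, and 1 gene had an unadjusted p under 0.05. The median log2 change was 0.10, against 0.003 over all genes tested, with a range of -0.03 to 0.30. Both post-imiquimod libraries were higher for 16 genes (13%) and lower for 4 (28.3%). DESeq2 called 0 members in both.

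The test of the difference itself, of the wound effect after imiquimod minus that in control, called 0 of 46 genes at 6 h and 0 at 12 h in edgeR (0% of all genes tested in both). The median differences were 0.12 and 0.13, with 2 genes and 1 gene at an unadjusted p under 0.05, and DESeq2 called 0 in both. The differences ran from -0.18 to 0.59 at 6 h and from -0.16 to 0.54 at 12 h. Without both day 30 libraries numbered 1, 0 were called at either time, with medians of 0.13 and 0.11. With 2 libraries a group these values do not show that the responses were alike.

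Levels at 12 h lay somewhat below those at 6 h, and none of the differences passed in the fit without the replicate block and with the filter on low counts. Both 12 h control wound libraries lay below both 6 h control wound libraries for 39 of 46 genes (21.6% of all genes tested), and in post-imiquimod wounds for 40 (20.9%). The median log2 change was -0.31 in control and -0.33 in post-imiquimod wounds. None passed in edgeR, where 0.162% of all genes tested in control and 0.0231% in post-imiquimod wounds were called lower (0.173% in either direction in post-imiquimod wounds), and DESeq2 called 0. An unadjusted p under 0.05 in edgeR was reached by 16 and 14 genes. That threshold is looser, so the shares just given cannot be set beside those counts, and no share at it is given here. With the replicate block, 10 genes were lower at 12 h in control wounds (Rrs1, Polr1b, Nol6, Nop14, Nop2, Nob1, Imp3, Rrp9, Ftsj3 and Wdr74, where 3.12% of all genes tested were lower) and 2 in post-imiquimod wounds (Nop2 and Wdr74, 1.22%).

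The wound and the imiquimod responses can be set against each other without shared libraries, as the 6 h control wound effect minus the day 6 imiquimod effect. The wound change was the larger one for 40 of 46 genes at 6 h and for 27 at 12 h. Over all genes tested the median difference was -0.05 at 6 h and -0.04 at 12 h. These counts of direction were not tested, and the 12 h count lies near an even split. By the test of the difference at 6 h, 13 genes were higher in the wound response (8.6% of all genes tested) and 1 was lower (10.5%), with a median difference of 0.42. With the replicate block 20 were higher, and 8 at 12 h, where 14.2% and 11% of all genes tested were called higher in that fit. Without both day 30 libraries numbered 1, the median difference at 6 h was 0.68. The comparison was added after the data had been seen.

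The 3 with the largest excess in wounds were Rrp9, a U3 snoRNP protein (1.09 ± 0.27 SE, edgeR adjusted p = 0.0157), Noc3l of 60S assembly (1.00 ± 0.26 SE, 0.0174) and Nop2 (0.97 ± 0.28 SE, 0.0282). Rrp9 stood at 120 and 147 CPM in 6 h control wounds and at 39.9 and 33.7 CPM in day 30 control. It stood at 60.5 and 42.3 CPM in day 6 imiquimod and at 41.2 and 35.2 CPM in day 6 control. Thus Rrp9 was well separated in wounds and barely so at day 6. The other 10 were Wdr12, Ddx18, Noc2l, Polr1b, Nol6, Nop14, Ddx10, Heatr1, Utp15 and Dkc1.

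Nhp2 went the other way. Its 6 h wound libraries stood at 201 and 221 CPM in control skin, against 96 and 114 CPM in day 30 control, a log2 change of 0.87, while its change at day 6 of imiquimod was 1.62. The difference was -0.75 ± 0.19 SE at 6 h (edgeR adjusted p = 0.0169) and -0.92 ± 0.19 SE at 12 h (0.0103). At 12 h Nhp2 was the 1 gene called lower (5.95% of all genes tested) and 0 were called higher (5.24%), with a median difference of 0.05. At day 6 its control libraries, at 56.3 and 57 CPM, were lower than those of day 30. The span of Nhp2 overlaps that of the gene Rmnd5b, and reads from a shared stretch cannot be assigned to either gene without strand.

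**Figure D5:**
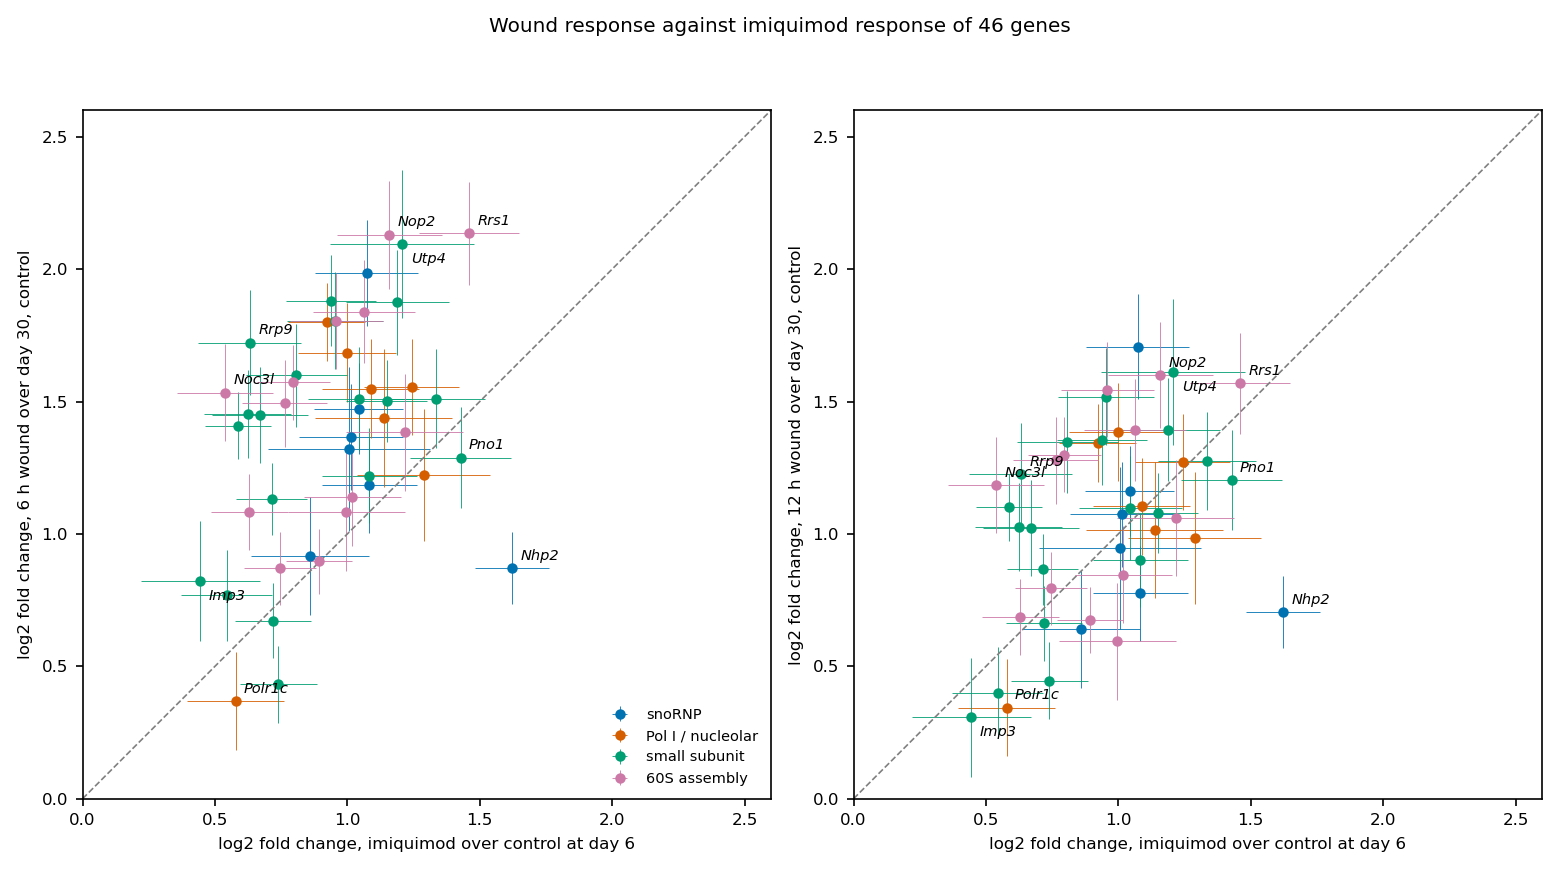
Log2 fold change of each of the 46 genes after control wounding (vertical axis, 6 h left, 12 h right, over day 30 control) against that at day 6 of imiquimod over control (horizontal axis), with SE bars, colours for roles and a dashed line of equal change. At 6 h 40 genes lie above the line, and Nhp2 lies below it at both times.

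These differences were fragile. Without library 2 of the 6 h control wounds 2 genes were called higher, without library 1 of day 6 control 3, and without library 2 of day 30 control 6. The call of Nhp2 at 6 h was lost without either day 6 control library (edgeR adjusted p = 0.0624 and 0.0517), without library 2 of day 30 control (0.0602) or library 1 of the wounds (0.071), and that at 12 h without library 2 of the 12 h wounds (0.0652). Noc3l and Nop2 lost theirs without library 1 of day 6 control (0.0525 and 0.0989) and library 2 of the 6 h wounds (0.0735 and 0.108), Rrp9 without the same wound library (0.063), and Nop2 without library 2 of day 6 imiquimod (0.0628) or of day 30 control (0.0718). Across the 46 genes the 6 h wound change and the day 6 imiquimod change correlated with Pearson's r = 0.37 and Spearman's rho = 0.36, and at 12 h with 0.41 and 0.39. The points are genes that share libraries within each axis, and they are not independent replicates.

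Other assembly factors, from a list of 111 further genes of which 110 were tested, moved the same way with smaller medians. At day 6, 88 of the 110 rose and 0 fell, with a median log2 change of 0.65, and the leading ones were Ccdc86 (1.44), Npm3 (1.25) and Wdr46 (1.22). In 6 h control wounds 96 rose and 3 fell, with a median of 1.13, led by Rrp1b (2.44 ± 0.22 SE), Cd3eap, a subunit of RNA polymerase I (1.88), and Ppan (1.86). The 3 that fell were Nop53 (-0.56), Pih1d1 (-0.47) and Taf1b (-0.41). In 12 h control wounds 86 rose and 2 fell, and the 2 were Nop53 (-0.96) and Nsa2 (-0.58). In post-imiquimod wounds 99 rose and 2 fell at 6 h, and 96 rose and 2 fell at 12 h.

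The cytosolic ribosomal protein genes encode the structural part of the ribosome. Of 84 tested, 12 rose and 0 fell at day 6 (median log2 change 0.39), 15 rose and 0 fell in 6 h control wounds (median -0.09), and 9 rose and 4 fell in 12 h control wounds (median -0.19). In post-imiquimod wounds 16 rose and 0 fell at 6 h, and 13 rose and 3 fell at 12 h. The share called higher was no larger than that of all genes tested in any of these 5 comparisons. Among those that rose in 6 h control wounds were Rps6 (1.60 ± 0.24 SE) and Rpl36a (1.21 ± 0.32 SE). Many ribosomal protein genes have near-identical processed pseudogenes with which reads can be shared, so that these values are uncertain.

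RNA polymerase III, which makes the 5S RNA and the tRNAs, was represented by 14 genes, of which 7 rose and 1 fell at day 6, and 6 rose and 1 fell in 6 h control wounds. Brf2 was the leading one in wounds (1.42). The gene that fell in both was Polr3gl (-0.85 at day 6 and -0.74 at 6 h), a subunit that is an alternative to Polr3g, which rose at day 6 (0.72).

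In the MYC network, Myc itself was lower in control wounds than in day 30 control, while the ribosome biogenesis genes were higher. Myc stood at 259 and 365 CPM in 6 h control wounds and at 897 and 728 CPM in day 30 control (log2 change -1.51 ± 0.25 SE, edgeR adjusted p = 0.000643). At 12 h it stood at 224 and 219 CPM in control wounds (-2.07 ± 0.25 SE, edgeR adjusted p = 0.000122). The groups lay far apart at both times. At day 6 Myc stood at 214 and 160 CPM with imiquimod and at 244 and 217 CPM in control (-0.09 ± 0.24 SE, edgeR adjusted p = 0.80). Max, the dimer partner of MYC, rose in 6 h control wounds (1.30) and at day 6 (0.59), as did Mlx (0.69 and 0.49), and Mxd4, which competes for Max, fell (-1.48 and -1.37). Mycl and Mxd3 fell in 6 h control wounds as well (-1.91 and -1.25), so that 2 of 10 genes of the network rose and 4 fell there. Myc in day 6 control skin was close to its levels in control wounds and below day 30 control, and the 2 unwounded controls were not tested against each other. These are RNA levels, and protein was not measured.

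Genes within or across other genes carry a limit. Of the 46, 7 hold 19 annotated snoRNA genes within their spans (Ncl, Nop56, Nop58, Wdr43, Dkc1, Gnl3 and Tsr1), and 12 overlap the span of another protein-coding gene, among them Nop56, Dkc1, Nhp2, Bop1, Wdr12, Gnl3 and Tsr1. The library preparation does not mark the strand. Fbl has 1 named pseudogene in the annotation.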

How the data were processed

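RNA from sorted epidermal cells was measured in 16 libraries, 8 groups of 2. Libraries were made with a TruSeq RNA kit, per the labels, and that kit does not mark strand. No use was made of 12 ATAC-seq samples. Per the submitters' processing notes, STAR and mm10 were used. Tool versions, the annotation release and the STAR column deposited were not given in the sources used here. What the authors deposited are raw read counts for each gene, whole numbers without normalization, taken here as unstranded. IDs were matched to GRCm38 symbols, and 47224 of 47729 matched. IDs without a symbol held 0.0365% to 0.0887% of counts.

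From these counts, edgeR 4.0.16 in R 4.3.3 (quasi-likelihood, robust, TMM scaling, filterByExpr by group) was fitted once, with a mean for each of the 8 groups and all 16 libraries sharing 1 estimate of the spread. This left 8 residual degrees of freedom, and the common biological coefficient of variation was 23.0%. Tests were two-sided. Benjamini-Hochberg adjustment ran over the 17299 genes tested, and the threshold was 0.05. Standard errors (SE) were taken from the F statistic. CPM are counts scaled to the total of their library. Such precision covers counting error and the spread of 2 libraries only, and an exact permutation test of 2 against 2 cannot go below p = 0.333. The fit was tested on simulated counts with 200 changed genes.

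Libraries with the same number at a time point deviated together from their group means (correlation across genes 0.220 at day 6, 0.452 at day 30, 0.539 at 6 h and 0.323 at 12 h, against -0.285 to 0.115 between times), so the number was also fitted as a replicate block within each time point.

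The members and gene lists were chosen with earlier results of these data known, and marker, pathway and proliferation lists support no claim of independence. Values by library are given for 8 genes (Fbl, Nop56, Dkc1, Polr1b, Ncl, Npm1, Bop1 and Heatr1) and for the 3 members with the largest change per direction among those that passed in a comparison, and for members that did not pass where there were 5 or fewer. Myc was described by library after its values had been seen. From other lists up to 3 genes per direction were named. Alternatives were RLE scaling, library totals alone, no filter on low counts, DESeq2 1.42.0, only the groups compared, the replicate block, libraries thinned to 1 total, day 30 without both libraries numbered 1, and each library left out in turn. Where that leaves 1 library in a group, it is assumed to vary like the other groups. Promoters are from RefSeq (GRCm38.p6).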

Additional observations from a re-analysis of the deposited data

Results flagged for a closer look

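The imiquimod effect on the ribosome biogenesis genes differed between day 6 and day 30 by the test of the difference itself, in 37 of the 46 genes (edgeR, adjusted p under 0.05). All 37 were higher at day 6, where 13.7% of all genes tested were called higher and 8.82% lower. That count was not stable, and it was 10 with only the groups compared in the fit. Among the genes given by library, the difference of the effects, day 6 minus day 30, was 0.93 on the log2 scale for Fbl, 0.85 for Dkc1, 0.88 for Polr1b, 1.14 for Ncl, 1.14 for Npm1, 1.19 for Bop1 and 0.93 for Heatr1. It was 1.86 for Nhp2, 1.75 for Pno1 and 1.58 for Rrs1. For Nop56, also given by library, it was 0.99 and did not pass (edgeR adjusted p = 0.123). With each of the 8 libraries compared left out in turn, Polr1b, Bop1, Nhp2, Pno1 and Rrs1 passed every time. Fbl lost the call in some of these fits (edgeR adjusted p of 0.0629 to 0.138), as did Dkc1 (0.0525 to 0.174), Ncl (0.1 to 0.177), Npm1 (0.0746 to 0.158) and Heatr1 (0.0515 to 0.104).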

How the results depend on the processing

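At day 6, in the 4 wound comparisons and in the day 6 minus day 30 effect, no member's log2 change turned its sign under the 8 other settings or with any 1 of the 16 libraries left out. In the other comparisons some members that did not pass turned theirs. The ranges with a library left out cover the libraries that each comparison uses. Under the other settings, the members called higher numbered 36 to 46 at day 6, 44 to 46 and 39 to 46 in control wounds at 6 h and 12 h, and 45 to 46 and 43 to 46 in post-imiquimod wounds. With 1 library left out in turn they numbered 35 to 42 at day 6, 40 to 45 and 37 to 43 in control wounds, and 43 to 45 and 38 to 45 in post-imiquimod wounds. In the imiquimod effect at day 6 minus that at day 30 they numbered 18 to 35, against 37 with all libraries, with 23 under library totals alone and 10 with only the groups compared. In the 6 h control wound effect minus the day 6 imiquimod effect, 2 to 15 were higher and 0 to 1 lower with a library left out. There 25 were higher and 0 lower under library totals alone, 20 higher with the replicate block, and 6 higher and 0 lower with only the groups compared. At 12 h 0 to 1 were lower and 0 higher with one of its own libraries left out. There 16 were higher and 0 lower under library totals alone, 8 higher with the replicate block, and 3 higher with 1 day 30 library of each treatment. From 6 h to 12 h, 10 genes were lower in control and 2 in post-imiquimod wounds with the replicate block, and 1 in post-imiquimod wounds with no filter on low counts. The cause of these moves was not tested. The block ended no call, and in comparisons of 2 groups it changed no call beyond those given beside the results. Library totals alone moved the median log2 change of all genes at day 6 to -0.11, against 0.10 with TMM, and in 6 h control wounds to 0.15, against 0.01.

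Limits are the 2 libraries a group, no mark of strand, and reads not collapsed to molecules. Day 6 and the later times had separate controls, and their levels were not tested against each other.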

Other observations

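Unwounded control skin was not at 1 level for every member across the 2 times. Fbl averaged 21.8 CPM in day 30 control and 62.8 CPM in day 6 control, with no overlap between the libraries. Npm1 averaged 224.8 CPM in day 30 control and 454.6 CPM in day 6 control, and Ddx18, an RNA helicase, 16.7 CPM in day 30 control and 35.2 CPM in day 6 control. Other members went the other way: Nhp2 averaged 105 CPM in day 30 control and 56.7 CPM in day 6 control, and Nop58 219 and 138 CPM. For 24 of the 46 genes the day 6 control mean lay above both day 30 means, and for 19 it was the lowest of all 8 groups. These counts were made for the 46 genes alone. Myc stood at 897 and 728 CPM in day 30 control and at 244 and 217 CPM in day 6 control. The mice differed in age between the times, and the reads of library 1 of day 30 control go against its label of female. The differences between the 2 controls were not tested.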
